A study of Mus musculus with 14 samples.

Results

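Pancreatic proteases were followed in the duodenum mucosa of mice through 14 probe sets of 9 genes: the trypsinogens Prss2 (4 probe sets) and Prss3 (1), 2210010C04Rik (3), the chymotrypsinogens Ctrb1 and Ctrl, the elastases Cela1 and Cela2a, and the carboxypeptidases Cpa1 and Cpb1 (1 each). A probe set was taken when the platform annotation assigned it to 1 of these symbols alone, and 1 probe set shared by Prss3 with other genes was left out, so that 14 of 45037 probe sets tested and 9 of 18193 genes were described. All were male C57BL6 mice, 12 wk old, which had eaten a low-fat (LF) diet before being fasted for 12 h. The HF groups then ate a high-fat meal, in which fat gave 60% of the calories, carbohydrate 20% and protein 20%. The LF groups ate a low-fat meal, in which these shares were 10%, 70% and 20%. Feeding was ad libitum, and the tissue was taken at 30 min (HF30min, LF30min), 1 h (HF1h, LF1h) or 3 h (HF3h, LF3h), counted from when feeding began. The fasting group received no meal.

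Each of the 7 groups was 1 pool of RNA from the scraped mucosa of 20 mice, hybridised to 2 Affymetrix arrays. Both arrays of a pool read the same RNA. The errors and p-values below are therefore technical ones, and no biological replicate was measured. In such bulk RNA, fewer cells of a type and less RNA per cell cannot be told apart. Values are log2 intensities, on which a difference of 1 is 2-fold.

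Pancreatic proteases are made by the acinar cells of the pancreas, which store them in zymogen granules as inactive precursors and release them into the duodenum after a meal. There, enteropeptidase of the brush border (Tmprss15) cleaves trypsinogen to trypsin, and trypsin in turn activates the chymotrypsinogens, proelastases and procarboxypeptidases. Their mRNA is among the most abundant of the pancreas, whereas the duodenum is the place where the proteins work. The exocrine pancreas of the mouse lies against the duodenum and within the mesentery around it. The study also cites a report that normal duodenal epithelium expresses pancreatic digestive enzymes. Which cells gave the values below was not tested.

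The tissue carried the markers of its label. The 11 brush-border and enterocyte genes measured (such as Alpi, Vil1 and Fabp2) averaged between 11.91 and 12.04 on the 14 arrays. The array medians over all probe sets were 4.47 to 4.55. Between duplicate arrays, r across probe sets was 0.9958 to 0.9971. For the protease probe sets, the SD between the 2 arrays of a pool ranged between 0.001 and 0.168, with a median of 0.026.

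Of the protease probe sets, 12 had means of 12.64 to 13.21 over the arrays, and all took a like course. All 14 were lowest at HF30min and second lowest at LF3h, while 12 were highest at LF1h and 2 (Prss2 1433459_x_at and Cpa1) at HF3h. Between them lay the fasting pool and LF30min, and on top HF1h, HF3h and LF1h. Of the 84 pairs of neighbouring pools in these orders, the arrays overlapped in 11, of which 9 were between HF1h, HF3h and LF1h and 2 between LF30min and the fasting pool. Overlap was not counted over all probe sets, so this count and later ones of it have no background to be read against. Over the 7 pools, the 91 pairs of probe sets correlated at 0.923 to 0.9998, with a median r of 0.995. These correlations describe 7 pools read on shared arrays, and were not tested.

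**Figure D1:**
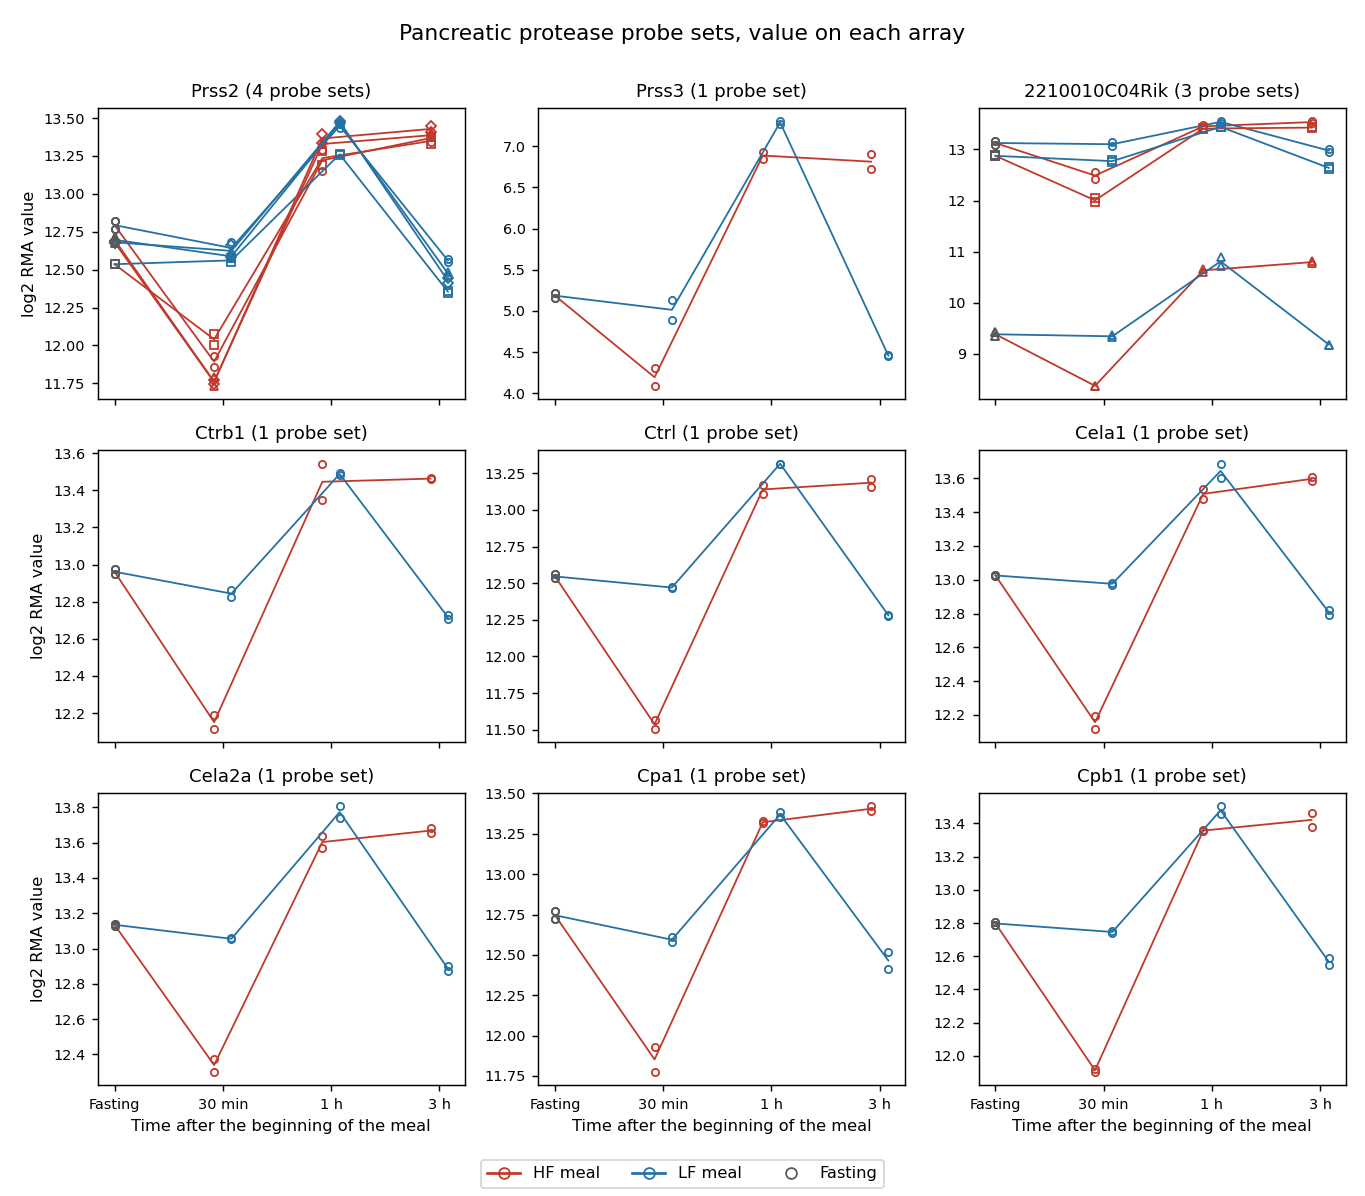
log2 RMA value of each protease probe set on every array (circle, square, triangle and diamond mark different probe sets of a gene), against the time from the start of the meal, with HF pools in red, LF pools in blue and the fasting pool in grey. Lines join pool means of 2 arrays. Each gene is lowest at HF30min and high at HF1h, HF3h and LF1h, and the y axes differ between genes.

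The trypsinogens are serine proteases that, once active, cleave after lysine and arginine. The Prss2 probe set 1435507_x_at read 12.68 and 12.69 in the fasting pool, 11.77 and 11.74 at HF30min, 13.34 and 13.40 at HF1h, 13.45 and 13.41 at HF3h, 12.58 and 12.66 at LF30min, 13.47 and 13.48 at LF1h and 12.41 and 12.44 at LF3h. All of its HF1h, HF3h and LF1h arrays lay above both fasting arrays, and both HF30min arrays lay below every other array. The other Prss2 probe sets 1417682_a_at and 1433573_x_at moved over the same range of pools, with means of 11.89 and 11.76 at HF30min and of 13.45 and 13.47 at LF1h. The remaining one, 1433459_x_at, moved least of the 4 at HF30min, with 12.00 and 12.08 at HF30min against 12.54 and 12.54 in the fasting pool. Mouse trypsinogens form a multigene family of near-identical copies. Of these probe sets, 3 end in _x_at, which marks probes that can bind transcripts of other genes. The other 1 ends in _a_at, which marks several transcripts of the same gene. Binding among the copies was not checked, so the signal cannot be assigned to Prss2 alone.

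Prss3 had the widest range of pool means. Its probe set 1450689_at read 5.16 and 5.22 in the fasting pool, 4.09 and 4.30 at HF30min, 6.84 and 6.93 at HF1h, 6.72 and 6.91 at HF3h, 4.90 and 5.13 at LF30min, 7.27 and 7.31 at LF1h and 4.46 and 4.46 at LF3h. Both arrays of HF1h, HF3h and LF1h stood above the fasting arrays, while both arrays of HF30min and LF3h stood below them. Its 7 pool means spanned 3.09 on the log2 scale (8.52-fold). At HF30min and LF3h its means of 4.20 and 4.46 were below the medians of the arrays, and how much of the signal there was background was not measured.

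2210010C04Rik, a protein-coding gene that the annotation lists by its RIKEN cDNA name, has its promoter on chromosome 6 as Prss2 and Prss3 do. Its 3 probe sets shared the order of the pools but not the size of the differences. Probe set 1422436_at read 9.35 and 9.42 in the fasting pool, 8.38 and 8.37 at HF30min, 10.60 and 10.67 at HF1h, 10.78 and 10.81 at HF3h, 9.32 and 9.37 at LF30min, 10.90 and 10.72 at LF1h and 9.18 and 9.19 at LF3h. This amounted to a 5.4-fold range of pool means. Probe set 1422434_a_at stayed between 12.41 and 13.56 on all arrays, a 2.07-fold range of pool means, and 1422435_at had a 2.71-fold range. Which of them tracks the transcript of this gene most closely was not tested.

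The chymotrypsinogens give serine proteases that prefer aromatic residues. Ctrl (1431763_a_at), a chymotrypsin-like protease, read 12.56 and 12.53 in the fasting pool, 11.57 and 11.51 at HF30min, 13.11 and 13.17 at HF1h, 13.16 and 13.21 at HF3h, 12.47 and 12.47 at LF30min, 13.32 and 13.31 at LF1h and 12.29 and 12.28 at LF3h. Its range of pool means, 3.43-fold, was the widest among the probe sets with a mean of at least 12. Ctrb1 (1448220_at) read 12.19 and 12.12 at HF30min and 13.49 and 13.48 at LF1h, against 12.95 and 12.98 in the fasting pool. Its HF1h arrays, at 13.35 and 13.54, lay farther apart than those of any other pool for this gene and enclosed both HF3h and LF1h arrays.

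The elastases are serine proteases that cleave after small residues in the case of Cela1 and after larger hydrophobic ones in the case of Cela2a. Cela2a (1448281_a_at) read 13.14 and 13.13 in the fasting pool, 12.30 and 12.38 at HF30min, 13.64 and 13.57 at HF1h, 13.66 and 13.68 at HF3h, 13.05 and 13.06 at LF30min, 13.81 and 13.74 at LF1h and 12.90 and 12.87 at LF3h. No neighbouring pools overlapped for this gene, which put HF1h, HF3h and LF1h in a rising order on these arrays. Neither HF3h against HF1h (0.065 ± 0.078, SE) nor HF1h against LF1h (-0.17 ± 0.078) passed the adjusted p, so this order was not established. Cela1 (1423693_at) read 12.20 and 12.12 at HF30min and 13.60 and 13.69 at LF1h, against 13.02 and 13.03 in the fasting pool.

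The carboxypeptidases are zinc enzymes that trim peptides from the C-terminal end, Cpa1 at aromatic and aliphatic residues and Cpb1 at basic ones. Cpa1 (1428062_at) read 12.77 and 12.72 in the fasting pool, 11.78 and 11.93 at HF30min, 13.33 and 13.31 at HF1h, 13.39 and 13.42 at HF3h, 12.58 and 12.61 at LF30min, 13.38 and 13.36 at LF1h and 12.41 and 12.52 at LF3h. Unlike in most members, both HF3h arrays of Cpa1 were above both LF1h arrays. Cpb1 (1428102_at) read 11.92 and 11.91 at HF30min and 13.50 and 13.46 at LF1h, against 12.79 and 12.81 in the fasting pool. The metalloproteases held the same order of low pools as the serine proteases.

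Since the members moved together, their promoters were read from RefSeq (GRCm38.p6), which gave a window from 250 bases before to 50 bases after the start for all 9 genes. The windows of 1 gene of each class, and of Prss3 as the member with the widest range, are shown 5′ to 3′ on the strand of the gene. They lie at chr6:41521526-41521825 on the plus strand (Prss2), chr6:41377564-41377863 on the minus strand (Prss3), chr8:111690961-111691260 on the minus strand (Ctrb1), chr4:141825956-141826255 on the minus strand (Cela2a) and chr6:30638968-30639267 on the plus strand (Cpa1). Capitals mark matches on either strand. One kind is CACCTG, an E-box, and a further one is CAGCTG, which is an E-box too. Another kind is TTTCCCA, called a TC box here, and the last is TATAAA, the core of a TATA box.
Prss2: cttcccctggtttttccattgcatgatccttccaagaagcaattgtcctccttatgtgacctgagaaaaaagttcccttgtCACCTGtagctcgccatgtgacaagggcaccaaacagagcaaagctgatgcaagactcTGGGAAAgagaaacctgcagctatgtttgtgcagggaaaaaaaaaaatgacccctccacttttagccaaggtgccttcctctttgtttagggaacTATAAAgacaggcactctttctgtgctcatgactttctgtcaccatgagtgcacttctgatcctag
Prss3: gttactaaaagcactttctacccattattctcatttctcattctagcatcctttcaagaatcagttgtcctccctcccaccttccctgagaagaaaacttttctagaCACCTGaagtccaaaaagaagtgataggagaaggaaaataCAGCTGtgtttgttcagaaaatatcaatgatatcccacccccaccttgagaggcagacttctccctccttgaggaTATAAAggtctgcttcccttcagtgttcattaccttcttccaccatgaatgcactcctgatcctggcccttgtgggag
Ctrb1: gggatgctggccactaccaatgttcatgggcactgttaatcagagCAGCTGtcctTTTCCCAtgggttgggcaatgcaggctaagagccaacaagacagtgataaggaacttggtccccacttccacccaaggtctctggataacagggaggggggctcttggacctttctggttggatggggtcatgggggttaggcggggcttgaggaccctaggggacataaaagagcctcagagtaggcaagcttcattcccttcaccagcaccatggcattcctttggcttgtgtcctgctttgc
Cela2a: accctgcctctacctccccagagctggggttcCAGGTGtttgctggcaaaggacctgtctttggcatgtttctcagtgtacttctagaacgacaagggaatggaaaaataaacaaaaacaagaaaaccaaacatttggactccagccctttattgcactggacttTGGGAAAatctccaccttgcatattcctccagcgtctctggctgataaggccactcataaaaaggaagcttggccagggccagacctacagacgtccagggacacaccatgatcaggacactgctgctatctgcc
Cpa1: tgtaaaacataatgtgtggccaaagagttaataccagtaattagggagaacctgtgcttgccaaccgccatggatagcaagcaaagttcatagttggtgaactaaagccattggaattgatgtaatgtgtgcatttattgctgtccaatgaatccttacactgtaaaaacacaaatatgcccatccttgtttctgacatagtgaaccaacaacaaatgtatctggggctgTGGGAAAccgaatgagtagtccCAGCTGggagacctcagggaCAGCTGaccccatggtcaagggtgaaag
E-boxes and a TC-rich box are the elements known to be bound by PTF1, the factor of acinar cells made of Ptf1a, an E protein and Rbpjl. CACCTG was found on either strand in 7 of the 9 protease windows, against 20.2% of 32851 windows of all genes, and CAGCTG in 5, against 16.3%. TTTCCCA was found in 4 (Prss2, Ctrb1, Cela2a and Cpa1), against 8.06% of all windows, and its shorter form TTTCC, which is contained in it, in all 9, against 61.3%. Further letters searched on both strands were TATAAA, in 5 members and 13.6% of all windows, GATAAG, in 3 and 7.44%, CTGTCA, in 1 and 19.2%, and CAAGGTCA, in none of the 9 and 1.56%. The windows printed differ in their letters: Prss3 holds both E-boxes and a TATA box but no TTTCCCA, whereas Cpa1 holds CAGCTG at 2 places and no TATAAA. Some matches lie after the start, such as TATAAA in Cpb1 at base 36 and CAGCTG in Cpa1 at bases 3 and 23. These are matches of letters, not measured sites.

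Each fed pool was set against the fasting pool, the question being which genes a meal moves from the fasted level. At LF30min the proteases stayed close to the fasting pool, with a median log2 difference of -0.08 and a range of -0.17 to 0.03. None of the 14 passed the test, at 2-fold or on the adjusted p alone (limma, adjusted p = 0.726 or more), where 0.0244% and 0.142% of all probe sets were lower by these rules. In 12 of them the LF30min and fasting arrays did not overlap, 11 times with LF30min below, but overlap was not counted over all probe sets.

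At LF1h all 14 protease probe sets rose, by a median of 0.67 (1.59-fold), with a range of 0.41 to 2.10. By the adjusted p alone 14 of 14 were higher, against 1.00% of all probe sets, and with the 2-fold minimum 2 were, against 0.158%. These 2 were Prss3, higher by 2.10 ± 0.11 (SE, 4.29-fold, adjusted p = 1.23e-07), and 2210010C04Rik 1422436_at, higher by 1.43 ± 0.09 (SE, 2.69-fold, adjusted p = 4.68e-07). Among the other 12 probe sets, Prss2 1435507_x_at rose by 0.79 ± 0.08 (SE, 1.73-fold, adjusted p = 5.1e-05) and Ctrl by 0.77 ± 0.08 (SE, 1.7-fold, adjusted p = 6.6e-05).

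At LF3h every protease probe set lay below the fasting pool, with a median of -0.24. The arrays overlapped in none of them, a count not set against all probe sets. Only Prss3 passed the adjusted p, falling by 0.73 ± 0.11 on the log2 scale (SE, adjusted p = 0.00136), and none reached 2-fold with it. Of all probe sets, 1.84% were lower by the adjusted p and 0.0799% at 2-fold. This count depended on the variance model. With a prior variance that follows the level, 14 of 14 passed the adjusted p, and with the dimmest probe sets left out of the fit 13 did.

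At HF30min all 14 fell, by a median log2 difference of -0.89 (1.85-fold), with a range of -1.01 to -0.50. By the adjusted p 14 of 14 were lower, against 0.371% of all probe sets. With the 2-fold minimum 2 were, against 0.0488%: Ctrl, at -1.01 ± 0.08 (SE, 2.01-fold, adjusted p = 7.38e-06), and 2210010C04Rik 1422436_at, at -1.01 ± 0.09 (SE, 2.01-fold, adjusted p = 2.02e-05). Prss3 stayed just inside 2-fold at -0.99 ± 0.11 (SE, 1.99-fold, adjusted p = 0.000184). Several members stood at this limit, and the 2-fold count was 1 without the second fasting array and 0 when each array was centred on its median. The smallest fall was that of Prss2 1433459_x_at, at -0.50 ± 0.08 (SE, 1.41-fold, adjusted p = 0.00635).

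At HF1h the probe sets stood above the fasting pool by a median of 0.57 (1.48-fold), with a range of 0.33 to 1.70. Of the 14, 13 rose by the adjusted p, against 0.504% of all probe sets, and 2 at 2-fold, against 0.0733%. The 2 were Prss3, at 1.70 ± 0.11 (SE, 3.25-fold, adjusted p = 1.42e-06), and 2210010C04Rik 1422436_at, at 1.25 ± 0.09 (SE, 2.38-fold, adjusted p = 3.08e-06). The probe set that did not pass was 2210010C04Rik 1422434_a_at, at 0.33 ± 0.09 (SE, 1.25-fold, adjusted p = 0.113). With only the 4 arrays of these 2 pools in the fit, 5 of the 14 passed the adjusted p.

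At HF3h all 14 rose, by a median of 0.63 (1.55-fold), with a range of 0.41 to 1.63. The 14 of 14 past the adjusted p compare with 2.52% of all probe sets, and the 2 past 2-fold with 0.246%. Prss3 was higher by 1.63 ± 0.11 (SE, 3.08-fold, adjusted p = 6.74e-07) and 2210010C04Rik 1422436_at by 1.41 ± 0.09 (SE, 2.66-fold, adjusted p = 3.69e-07). Cpa1 rose by 0.66 ± 0.08 (SE, 1.58-fold, adjusted p = 0.000287) and Cela2a by 0.53 ± 0.08 (SE, 1.45-fold, adjusted p = 0.00096). All 6 comparisons used the same 2 fasting arrays, and over all probe sets the median log2 difference was between -0.02 and 0.01 in each of them.

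**Figure D2:**
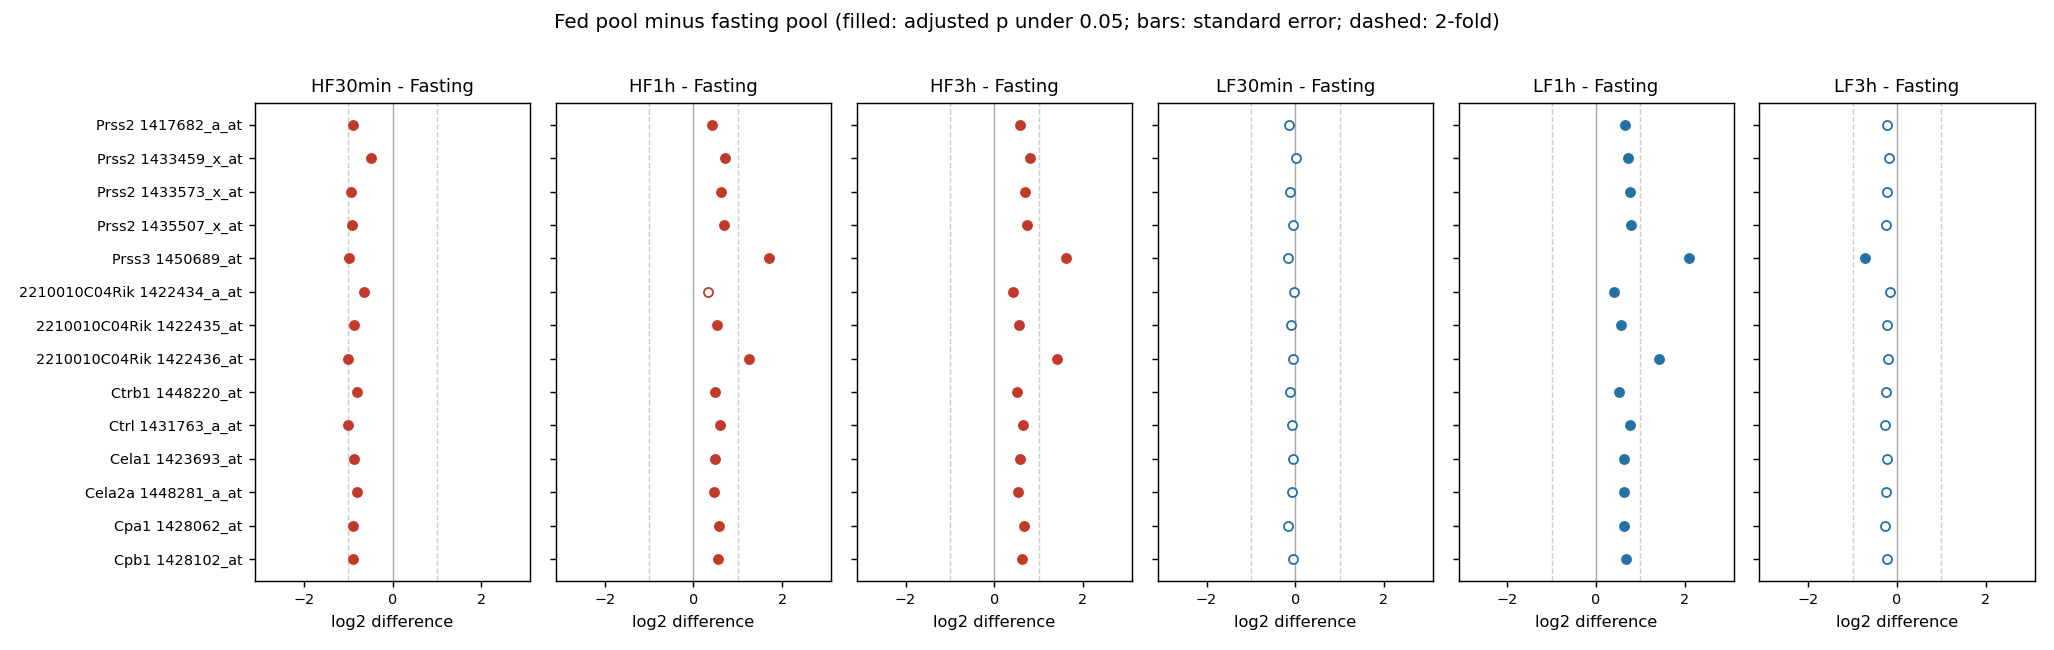
log2 difference of each fed pool from the fasting pool for the 14 protease probe sets, with the HF pools in red and the LF pools in blue, in order of time. Filled points have an adjusted p under 0.05, dashed lines mark 2-fold, and the standard errors of 0.08 to 0.11 are hidden by the points. Every probe set lies to the left of 0 at HF30min and to the right at LF1h, HF1h and HF3h.

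The meals were then compared at the same time, without the fasting arrays. At HF30min the proteases were lower than at LF30min in all 14 probe sets by the adjusted p, against 0.215% of all probe sets, with a median log2 difference of -0.79 (1.73-fold). None reached 2-fold, against 0.0289% of all probe sets. The widest difference was that of 2210010C04Rik 1422436_at, at -0.97 ± 0.09 (SE, 1.96-fold, adjusted p = 6.99e-05), followed by Ctrl, at -0.93 ± 0.08 (SE, 1.91-fold, adjusted p = 3.76e-05). With only the 4 arrays of these pools fitted, 7 of the 14 passed.

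At 1 h the HF pool was below the LF pool in all 14 probe sets, by a median of -0.13. The arrays did not overlap in 12 of them, a count not set against all probe sets. None passed the adjusted p (adjusted p = 0.193 or more), against 0.135% of all probe sets and 0.0178% at 2-fold. The largest difference, that of Prss3, was -0.40 ± 0.11 (SE). With a variance that follows the level 4 passed, and with the dimmest probe sets left out of the fit 1 did.

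At 3 h the order was the other way. All 14 probe sets were higher at HF3h than at LF3h by the adjusted p, against 0.862% of all probe sets, with a median of 0.88 (1.84-fold) and a range of 0.56 to 2.35. Past 2-fold were 3, against 0.178%. Prss3 read 6.72 and 6.91 at HF3h against 4.46 and 4.46 at LF3h, a difference of 2.35 ± 0.11 (SE, 5.11-fold, adjusted p = 2.83e-08). 2210010C04Rik 1422436_at differed by 1.61 ± 0.09 (SE, 3.06-fold, adjusted p = 1.22e-07) and Prss2 1435507_x_at by 1.00 ± 0.08 (SE, 2-fold, adjusted p = 4.89e-06). The last stood at the 2-fold limit, and leaving out 1 array gave between 2 and 4 probe sets past it. No array of one pool overlapped with the other in any member, a count not set against all probe sets.

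**Figure D3:**
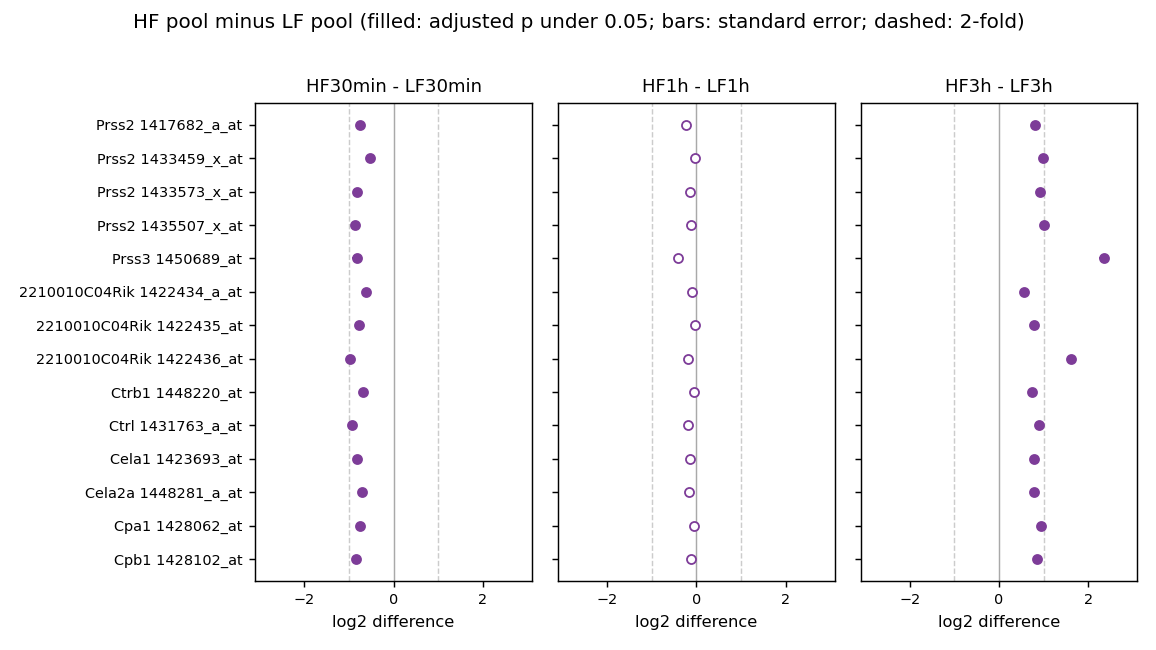
log2 difference of the HF pool from the LF pool at 30 min, 1 h and 3 h for the 14 protease probe sets. Filled points have an adjusted p under 0.05, dashed lines mark 2-fold, and the standard errors are smaller than the points. All points are below 0 at 30 min, near 0 at 1 h and above 0 at 3 h.

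The steps within a meal were also tested without the fasting arrays. After the LF meal, all 14 probe sets were higher at LF1h than at LF30min by the adjusted p, against 0.391% of all probe sets, with a median of 0.76, and 2 past 2-fold (Prss3 and 2210010C04Rik 1422436_at), against 0.124%. With the 4 arrays of these pools alone, 7 passed the adjusted p. At LF3h all 14 were lower than at LF1h, against 1.24% of all probe sets, with a median log2 difference of -0.91. Past 2-fold were 4, against 0.167%. They were Prss3, at -2.83 ± 0.11 (SE, 7.1-fold, adjusted p = 2.27e-08), 2210010C04Rik 1422436_at, at -1.63 ± 0.09 (SE, 3.09-fold, adjusted p = 1.01e-07), Prss2 1435507_x_at, at -1.05 ± 0.08 (SE, 2.07-fold, adjusted p = 3.56e-06), and Ctrl, at -1.03 ± 0.08 (SE, 2.05-fold, adjusted p = 3.89e-06).

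After the HF meal the step between 30 min and 1 h was the widest. All 14 were higher at HF1h than at HF30min by the adjusted p, against 0.433% of all probe sets, by a median of 1.42 (2.68-fold). Past 2-fold were 13, against 0.135% of all probe sets, the exception being 2210010C04Rik 1422434_a_at at 0.96 ± 0.09 (SE, 1.95-fold, adjusted p = 1.92e-05). In this step Prss3 rose by 2.69 ± 0.11 (SE, 6.45-fold, adjusted p = 2.75e-09), Ctrl by 1.60 ± 0.08 (SE, 3.04-fold, adjusted p = 2.27e-08), Cpa1 by 1.47 ± 0.08 (SE, 2.77-fold, adjusted p = 1.42e-07) and Cela1 by 1.35 ± 0.08 (SE, 2.55-fold, adjusted p = 1.79e-07). Between HF1h and HF3h none passed (adjusted p = 0.466 or more), with a median of 0.07 and a range of -0.08 to 0.16. Of all probe sets, 0.930% were higher at HF3h than at HF1h by the adjusted p and 0.0844% at 2-fold. In 13 of the 14 the HF3h mean was the higher one. In 10 the HF3h and HF1h arrays did not overlap, a count not set against all probe sets. With a variance that follows the level 1 passed.

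The probe sets did not share the size of their changes. The 12 with a mean of at least 12 had ranges of pool means of 1.05 to 1.78 on the log2 scale, with a median of 1.52. 2210010C04Rik 1422436_at had a range of 2.43 and Prss3 one of 3.09. Brighter probe sets had narrower ranges, with a Pearson r of -0.94 between mean level and range over the 14, and of -0.655 among the 12. The highest values on the arrays were 14.34 to 14.41. Whether bright probe sets were compressed, which would lower their fold changes and 2-fold counts, was not tested. The range of Prss3 takes in the 2 pools in which it lay below the array medians, where the share of background in its signal was not measured.

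Genes of the same pathway were read with 1 probe set each. Of 11 other pancreatic proteases listed, 3 had a probe set of their own: Ctrc, a chymotrypsin that also degrades trypsinogen, the elastase Cela3b, and the kallikrein Klk1. All 3 rose at LF1h and HF3h by the adjusted p, 2 at HF1h, and 2 (Cela3b and Klk1) fell at HF30min. Klk1 had means of 8.78 at HF30min and 11.05 at LF1h, against 9.78 in the fasting pool. For Ctrc the difference at HF30min was -0.44 ± 0.10 (SE, adjusted p = 0.0666).

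Of 7 inhibitors and activators of trypsin and related proteases listed, 6 were measured, and 1 moved. Serpini2, a pancreatic serpin, rose by 1.67 ± 0.12 at LF1h (SE, adjusted p = 1.97e-06) and by 1.41 ± 0.12 at HF3h (adjusted p = 6.47e-06), and fell at HF30min, with a log2 difference of -0.99 ± 0.12 (adjusted p = 0.000458). Spink1, the trypsin inhibitor that acinar cells pack with trypsinogen, had means between 12.20 and 12.31 in the pools compared here, and passed no test (adjusted p = 0.596 or more over the 13 comparisons). Tmprss15, the enteropeptidase itself, had means of 8.31 at HF30min, 8.27 at LF1h and 8.40 at HF3h, against 8.48 in the fasting pool, and did not pass either. A2m, Serpina1b and Spink5 passed no test.

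Most other secretory genes of acinar cells moved in the direction of the proteases. Of 20 listed, 15 were measured. By the adjusted p 14 rose at LF1h, 12 at HF1h and 13 at HF3h, and 10 fell at HF30min, with median log2 differences of 1.13, 0.80, 1.12 and -0.86, against medians of -0.004, 0.014, 0.001 and -0.013 over all probe sets. At LF1h the largest rises were those of Erp27, a protein of the endoplasmic reticulum (1.67 ± 0.16, SE), the phospholipase Pla2g1b (1.57 ± 0.10) and Tmed6 (1.54 ± 0.14). At HF30min Tmed6 fell most, with a log2 difference of -1.53 ± 0.14 (SE, adjusted p = 4.99e-05), followed by the zymogen granule protein Gp2 (-1.11 ± 0.08) and the lipase-related Pnliprp1 (-1.07 ± 0.09). There Tmed6, at a mean of 4.53, was at the level of the array medians. The 5 that did not pass at HF30min, named after their values were seen, were Pla2g1b (-0.36 ± 0.10), Erp27 (-0.59 ± 0.16), the aquaporin Aqp12 (-0.25 ± 0.13), the deoxyribonuclease Dnase1 (0.06 ± 0.08) and Zg16 (0.03 ± 0.08). Dnase1 rose at LF1h, by 0.44 ± 0.08 (SE, adjusted p = 0.0146), but was at -0.22 ± 0.08 at HF3h (adjusted p = 0.17), where the proteases were higher than in the fasting pool. Zg16, which is also expressed by goblet cells of the gut, passed in none of the 4 comparisons and had means of 13.94 at HF30min, 13.91 at HF1h, 13.92 at HF3h and 13.92 at LF1h, against 13.91 in the fasting pool.

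At HF3h against LF3h, 13 of the 15 acinar secretory genes were higher, with a median of 1.33. Of 8 acinar transcription factors, Ptf1a rose by 0.83 ± 0.19 at LF1h (SE, adjusted p = 0.0435), by 1.01 ± 0.19 at HF1h (adjusted p = 0.0174) and by 1.22 ± 0.19 at HF3h (adjusted p = 0.00121), with a fasting mean of 4.78. At HF3h Bhlha15 also rose, by 0.59 ± 0.11 (adjusted p = 0.00482), and Nr5a2, which the gut epithelium also expresses, fell by 0.55 on the log2 scale (adjusted p = 0.00388). None of the 8 passed at HF30min. Ptf1a, Rbpjl and Foxp2 had fasting means of 4.78, 4.70 and 4.24, near or below the array medians, so a fall of these could have gone unseen.

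Genes of the islets, the endocrine part of the pancreas, did not follow the proteases throughout. Of 9 islet genes measured, 4 rose and none fell at HF30min, where the proteases fell and 0.600% of all probe sets were higher. Fasting means of the 9 reached from 2.57 for G6pc2, below the array medians, to 12.02 for Slc2a2. How much of their signal came from islets and how much from the mucosa was not measured. Ins2, an insulin gene, had a mean of 10.65 at HF30min against 8.99 in the fasting pool, a rise of 1.65 ± 0.09 (SE, adjusted p = 3.52e-07), and Iapp, which is secreted with insulin, rose there by 1.60 ± 0.15 (adjusted p = 3.62e-05). At LF3h Ins2 fell, with a log2 difference of -2.05 ± 0.09 (adjusted p = 3.05e-08), and at LF30min too, with -1.46 ± 0.09 (adjusted p = 1.63e-06), and at HF3h it rose by 1.14 ± 0.09 (adjusted p = 6.36e-06). At LF1h, where the proteases were highest in 12 probe sets, none of the 9 islet genes passed against fasting. In the steps around it, Ins2 and Iapp went the way of the proteases. Ins2 was higher at LF1h than at LF30min by 1.73 ± 0.09 (SE, adjusted p = 2.34e-07) and Iapp by 1.24 ± 0.15 (adjusted p = 0.000446). At LF3h against LF1h the log2 difference was -2.32 ± 0.09 for Ins2 (adjusted p = 3.32e-08) and -1.55 ± 0.15 for Iapp (adjusted p = 3.66e-05). After the HF meal the step ran opposite to that of the proteases, with Ins2 lower at HF1h than at HF30min by a log2 difference of -1.30 ± 0.09 (adjusted p = 1.95e-06).

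Genes listed for the stomach and for Brunner glands, which are part of the duodenum, moved too, in part in other pools and directions than the proteases. The 10 stomach and Brunner gland genes averaged 8.58 to 8.60 on the 2 arrays of HF30min, 6.14 to 6.15 at HF1h, 7.23 to 7.31 at HF3h, 7.80 to 7.89 at LF30min, 6.80 to 6.87 at LF1h and 5.72 to 5.76 at LF3h, against 5.91 to 5.97 on the fasting arrays. At HF30min all 10 rose, by a median of 2.28, among them the gastrokines Gkn3 (6.57 ± 0.17, SE), Gkn1 (3.94 ± 0.11) and Gkn2 (3.68 ± 0.08). At LF30min 6 rose, by a median over the 10 of 1.64, against 0.326% of all probe sets, while no protease passed.

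At LF1h, where all the protease probe sets rose, 6 of the 10 stomach and Brunner gland genes rose too, 4 of them past 2-fold, with a median over the 10 of 0.82. The 4 were Gkn3 (1.67 ± 0.17, SE), Gkn1 (1.54 ± 0.11), Gkn2 (1.51 ± 0.08) and the trefoil factor Tff2 (1.35 ± 0.09). At LF3h, where all the protease probe sets lay below the fasting pool, 3 fell and none rose, namely Gkn1 (-0.42 ± 0.11), Gkn2 (-0.40 ± 0.08) and Tff2 (-0.34 ± 0.09). At HF1h 1 rose (Tff2) and at HF3h 5 did, and at HF3h 3 of 5 adipocyte genes rose as well. Among these, Cidec of the lipid droplet had a mean of 9.33 at HF3h against 8.32 in the fasting pool. Atp4a of the acid pump had a mean of 3.36 in the fasting pool, below the array medians.

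By contrast, the mean of the 11 brush-border and enterocyte genes stayed within the narrow range given above, and at most 1 of them passed in any comparison with the fasting pool. The 8 mast cell proteases and markers, another source of carboxypeptidase and chymase mRNA in mucosa, averaged 3.83 to 4.04 on the arrays, and none passed in any of the 13 comparisons. Their average was below the array medians, so a change in these genes could have gone unseen. The 6 smooth muscle genes averaged 6.001 to 6.426, of which 1 passed at HF30min against fasting. The part of neighbouring tissue in the protease values was not tested.

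**Figure D4:**
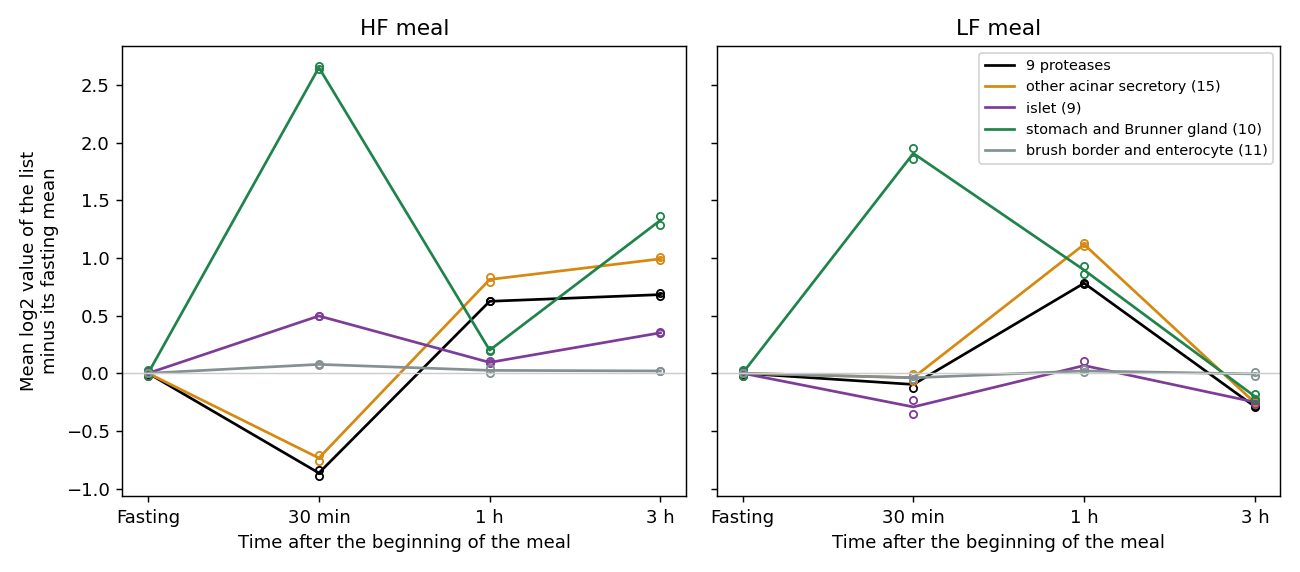
Mean log2 value of the genes of a list minus the same mean in the fasting pool, against time from the start of the HF meal (left) and the LF meal (right). Points are single arrays and lines join pool means, for the 9 proteases and for 4 other lists, with the number of genes measured in brackets. The proteases and the other acinar secretory genes fall and rise together, while the stomach and Brunner gland genes peak at 30 min after both meals and the brush-border genes stay near 0.

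Outside the members, the 10 genes most like the mean centred course of the protease probe sets were sought by Pearson's r over the 7 pools, among 12526 probe sets of other genes with a pool mean of at least 6, with the best probe set of each gene. They were Tmed6 (r = 0.9986), Rnase1 (0.998), Cel (0.9979), Cela3b (0.9972), Sycn (0.9957), Klk1 (0.9951), Pnliprp1 (0.9951), Gp2 (0.9949), Clps (0.992) and Serpini2 (0.9891). Of these, Rnase1 is the pancreatic ribonuclease, Cel, Pnliprp1 and Clps are a lipase, a lipase-related protein and the colipase of pancreatic juice, and Sycn and Gp2 belong to the zymogen granule. Tmed6 had pool means of 6.06 in the fasting pool, 4.53 at HF30min, 7.24 at HF1h and 7.44 at HF3h after the HF meal, and 6.02, 7.60 and 5.71 at LF30min, LF1h and LF3h. Cel had 12.15 in the fasting pool, 11.15 at HF30min and 13.19 at LF1h. With 7 points read on shared arrays, these values rank genes and were not tested.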

How the data were processed

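RNA of duodenum mucosa was hybridised to 14 arrays (Affymetrix MOE 430 v2.0), 2 technical arrays for each of 7 pools of 20 mice. The authors used Robust Multiarray Analysis for background and normalization and deposited log2 values, whose base is taken from that method. The version of the software is not given in the sources used here. The values were used without further scaling.

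The 64 control probe sets among 45101 were left out. The platform annotation named 1 gene for 34945 of the others, several for 932 and none for 9160, and 34741 were matched to current genes by Entrez ID. limma 3.58.1 (R 4.3.3) was fitted to 45037 probe sets with a mean for every pool, 7 residual degrees of freedom, 6.4 prior ones and 0.0115 as the prior variance. The 13 comparisons (6 of a fed pool with fasting, 3 of the HF with the LF pool, 4 between consecutive times of a meal) were each adjusted by Benjamini-Hochberg over all probe sets. Calls required an adjusted p under 0.05, alone or together with a 2-fold minimum. The median standard error was 0.079 for the protease probe sets and 0.11 for all. Only 2 arrays per pool limit the precision, and differences between mice were not measured.

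Genes of other lists were represented by their probe set with the highest mean. The text names every member, every measured gene of the lists of other pancreatic proteases and of inhibitors and activators, up to 3 of the genes with the largest change in a list called in the comparison described, and the 10 genes most like the members. Apart from these, Zg16, Dnase1, Aqp12, Atp4a and examples of a list (Alpi, Vil1, Fabp2) were picked after their values were seen, and some genes are also given for comparisons other than the one that named them. The members and lists were chosen with earlier results of these data known. The fit was checked on simulated probe sets. Promoter windows and coordinates are from RefSeq (GRCm38.p6), and the plots were made in matplotlib 3.10.9 (Python 3.11.15). Alternatives were other fold and p rules, a filter at a pool mean of 6, other variance models, other scaling, the replicate number as a block, only the arrays compared, fewer probe sets and each array left out in turn. The SAGE tags of the study were not analysed here.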

Additional observations from a re-analysis of the deposited data

Results flagged for a closer look

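The HF and LF pools of 3 h differed in the proteases by a direct test of HF3h against LF3h (limma, adjusted over 45037 probe sets). At least a 2-fold difference was found in 3 of the 14 protease probe sets, against 0.178% of all probe sets that were higher at HF3h by this rule. Prss3 was 2.35 higher at HF3h than at LF3h on the log2 scale (5.11-fold, adjusted p = 2.83e-08). Its LF3h mean of 4.46 was below the array medians. 2210010C04Rik 1422436_at was 1.61 higher (3.06-fold, adjusted p = 1.22e-07) and Prss2 1435507_x_at 1.00 higher (2-fold, adjusted p = 4.89e-06), which is at the 2-fold limit. In all 3, both HF3h arrays lay above both LF3h arrays. The 2 arrays of a pool are technical, so that differences between mice are not covered.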

How the results depend on the processing

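Of the differences of single probe sets, the 126 that passed the adjusted p were followed, and none of these changed sign. The signs of those that did not pass were not compared. Of 1008 values of the 126 under the alternatives other than leaving out an array, 971 kept their side of the threshold and 37 no longer passed, and of 1764 with 1 array left out, 1723 kept it and 41 no longer passed. Counts of the 14 protease probe sets depended on the fold minimum in most comparisons and on the variance model or the filter in others. At 1.5-fold they were 11 for LF1h, 1 for LF3h, 13 for HF30min, 6 for HF1h and 8 for HF3h against fasting, and 13 each for HF30min against LF30min, HF3h against LF3h, LF1h against LF30min and LF3h against LF1h. With no fold minimum they were 14, 1, 14, 13 and 14 against fasting and 14 in each of these other 4. Of calls on the adjusted p, LF3h against fasting gave 13 with a filter at a pool mean of 6, 14 with a variance following the level and 3 after quantile normalization. HF1h against LF1h gave 1 with that filter and 4 with that variance, and HF3h against HF1h 1 with that variance. With only the 4 arrays of the pools compared, 5 passed for HF1h against fasting and 7 each for HF30min against LF30min and LF1h against LF30min.

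The 2-fold count at HF30min against fasting was 0 after median centring and between 1 and 2 with 1 array left out, 1 being without the second fasting array. Centring shifted the median of no comparison by more than 0.038, and quantile normalization by no more than 0.075. Leaving out the members whose name ends in _s_at, _x_at or _a_at kept 7. All 7 passed the adjusted p for LF1h, HF30min, HF1h and HF3h against fasting, HF30min against LF30min, HF3h against LF3h and the steps LF1h against LF30min, LF3h against LF1h and HF1h against HF30min. At 2-fold, 1 was called at HF30min against fasting, 2 at LF3h against LF1h and 7 at HF1h against HF30min.

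The replicate number did not pair the arrays. Over 21 pairs of pools, the deviations of same-numbered arrays correlated at -0.187 to 0.151 (median -0.001), with 2 pairs over 0.1. With the replicate block, 14 probe sets passed the adjusted p at LF1h and at HF30min against fasting, as without it, and 13 instead of 14 at LF1h against LF30min. No count of calls moved by more than 1.5 times under the block. Depth has no counterpart on arrays, but Prss3 lay near the array medians in 4 pools, where background, which was not measured, may limit its fold changes.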
